A study of Mus musculus with 6 samples.

Results

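The dystrophin-glycoprotein complex and its relative utrophin were followed in mouse quadriceps, the muscle group that extends the knee, as 8 genes chosen by name: Dmd, Utrn, Dag1, Sgca, Sgcb, Sgcd, Sntb1 and Dtna. All 8 were found among the 20015 genes of the deposited table, and all 8 were among the 16095 genes that passed the count filter and were tested. The injured group holds 3 libraries (letters A, B and C) from quadriceps of limbs with a torn anterior cruciate ligament (ACL), the ligament that steadies the knee, taken before any reconstruction. The non-injured group holds 3 libraries with the same letters from quadriceps of limbs without that injury. The labels give no genotype, strain, age, sex, time after injury or number of animals for either group, and they do not say whether the 2 limbs of a letter came from 1 animal. The organism is labelled as mouse, but other text of the submission speaks of human tissue. The gene rows are mouse gene models, and 96.4% of them carry the start and, within 1 base, the end of the gene of that name in GENCODE M21 on mm10, so the values are treated as mouse.

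Dystrophin is a long rod beneath the muscle fibre membrane that binds the actin skeleton at one end and dystroglycan at the other. Dystroglycan, made from the Dag1 transcript, crosses the membrane and holds laminin outside the fibre. The sarcoglycans brace it within the membrane, and syntrophins and dystrobrevins attach signalling proteins from the inside. Utrophin is the autosomal relative of dystrophin and in adult muscle is concentrated at the neuromuscular junction. Loss of dystrophin or of alpha-, beta- or delta-sarcoglycan causes muscular dystrophy in people and mice.

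Library totals were 6452791 to 7499758 counts in the injured group and 7234184 to 8752501 in the non-injured group, which puts 9 to 27 counts per library behind Sntb1 and 10908 to 19850 behind Dmd. The tissue carried the transcripts of muscle fibres: 8 fibre markers (Ttn, Neb, Ckm, Actn3, Acta1, Myh4, Myh1 and Myh2) summed to 189294 to 197042 CPM (counts per 1000000, over library sizes scaled by TMM, the trimmed mean of M-values) in injured and 204609 to 211698 CPM in non-injured libraries. The injured libraries lay below the non-injured ones in that sum, of which Ttn alone made up 67.5% to 70.2% in injured and 67.6% to 71.0% in non-injured libraries. Without Ttn, left out after the values were seen, the sums overlapped (56402 to 63510 CPM in injured, 59595 to 66267 CPM in non-injured libraries). Singly, 0 of the 8 markers passed the test and 0 had an unadjusted p under 0.05. With the letter as a block, a fit that compares the groups within each letter, 0 passed. The log2 fold changes of the 8 ran from -0.31 ± 0.15 (SE) for Myh4 to 0.20 ± 0.15 for Myh1, and 5 were negative. For Myh4 the unadjusted p was 0.0522 (edgeR), or 0.0426 with the block (blocked adjusted p = 0.21). Of the markers of other cells, 6 of 7 macrophage markers were tested, 3 rose (6 with the block), and they summed to 80.1 to 146 CPM in injured and 35.3 to 42.7 CPM in non-injured libraries. Of 7 fibroblast markers 2 rose, and they summed to 442 to 720.4 CPM in injured and 189 to 238 CPM in non-injured libraries. Those 2 were the collagens Col1a1 and Col3a1. Without them, a choice made after the values were seen, the sums overlapped (122 to 145 CPM in injured, 105 to 132 CPM in non-injured libraries). Of the 7, 0 had a negative log2 fold change and 3 an unadjusted p under 0.05 (edgeR). The third was Pdgfra, with 31.1, 30.3 and 31.3 CPM in injured libraries A, B and C, against 19.1, 27.6 and 21.2 CPM in non-injured libraries A, B and C (adjusted p = 0.226, edgeR). Of 5 erythroid markers 1 rose, or 4 with the block (132 to 324 CPM in injured, 71.4 to 151 CPM in non-injured libraries). Of 5 adipocyte markers 0 fell, or 2 with the letter as a block (37.7 to 51.8 CPM in injured, 58.5 to 84.3 CPM in non-injured libraries). The endothelial (7 of 7), smooth muscle (6 of 7), Schwann cell (5 of 7) and satellite cell (4 of 5) markers tested included 0 that passed. The Schwann cell sums were 19.7 to 24.5 CPM in injured and 11.9 to 17.7 CPM in non-injured libraries. The part of these shifts in the results below was not tested. The deposited counts are named as myonuclear RNA, while the labels' protocol describes total RNA and no isolation of nuclei. Which kind was sequenced is not settled here, and levels, their order and marker sums would be read differently for each. In either kind, fewer fibres and less RNA per fibre cannot be told apart.

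None of the 8 genes passed the test in the fit on group alone: 0 of 8, where 0.746% of all genes tested were called, 0.715% as higher and 0.0311% as lower (edgeR quasi-likelihood test, Benjamini-Hochberg adjusted p under 0.05). DESeq2 and limma-voom likewise called 0 of the 8, though Dag1 lay near the threshold in DESeq2 (adjusted p = 0.0586 in DESeq2, 0.126 in limma-voom). At an unadjusted p under 0.05 there were 2, Dag1 and Sgcd, both lower in injured muscle, against 15.4% of all genes in either direction and 6.11% lower. With the letter as a block those 2 fell, where 5.86% of all genes changed and 2.65% fell in that fit. The CPM ranges of the groups did not overlap for 3 of the 8, Dag1, Sgcb and Sgcd, all lower in injured muscle, as for 9.57% of all genes in that direction. They did not overlap with injured higher for 0 of the 8, where that held for 11.9% of all genes. The log2 fold change, injured over non-injured, was negative for 6 of the 8, with a median of -0.21 over the 8 and 0.00 over all genes tested. Well-measured genes as a whole leaned the same way: the 3687 genes with a mean of at least 200 counts had a median of -0.11, with 69.0% negative and 7.95% fallen in the blocked fit. The 7 members above that mean had a median of -0.21.

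Promoter windows of the RefSeq table (GRCm38.p6, 250 bases before to 50 after a transcript start) were matched by symbol for 6 of the 8 genes, in 8 windows. The 4 shown belong to the most abundant transcript, to the 2 that were lower with the letter block, and to Utrn, the gene set against Dmd. Capitals mark E-boxes (CANNTG), GC boxes (GGGCGG), the CArG box and the MEF2 site, searched on both strands:
Dmd, chrX:82948620-82948919, plus strand: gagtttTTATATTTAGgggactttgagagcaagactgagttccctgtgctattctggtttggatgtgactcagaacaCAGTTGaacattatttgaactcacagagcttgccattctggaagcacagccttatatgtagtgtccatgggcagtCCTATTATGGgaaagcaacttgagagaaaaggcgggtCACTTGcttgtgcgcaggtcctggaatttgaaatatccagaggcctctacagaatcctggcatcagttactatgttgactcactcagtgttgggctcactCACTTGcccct
Utrn, chr10:12861686-12861985, minus strand: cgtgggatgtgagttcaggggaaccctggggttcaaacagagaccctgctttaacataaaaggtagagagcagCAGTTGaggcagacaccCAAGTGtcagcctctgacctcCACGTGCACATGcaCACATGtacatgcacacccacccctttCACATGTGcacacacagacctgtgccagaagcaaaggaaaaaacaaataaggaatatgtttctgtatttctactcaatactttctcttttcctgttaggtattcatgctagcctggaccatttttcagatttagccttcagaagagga
Dag1, chr9:108263909-108264208, minus strand: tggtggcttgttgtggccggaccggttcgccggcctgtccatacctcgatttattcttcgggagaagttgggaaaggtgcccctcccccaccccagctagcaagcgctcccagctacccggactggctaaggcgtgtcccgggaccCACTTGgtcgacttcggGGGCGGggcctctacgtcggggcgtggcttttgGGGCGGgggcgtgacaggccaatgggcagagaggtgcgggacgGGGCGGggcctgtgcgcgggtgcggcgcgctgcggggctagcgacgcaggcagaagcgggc
Sgcd, chr11:47379276-47379575, minus strand: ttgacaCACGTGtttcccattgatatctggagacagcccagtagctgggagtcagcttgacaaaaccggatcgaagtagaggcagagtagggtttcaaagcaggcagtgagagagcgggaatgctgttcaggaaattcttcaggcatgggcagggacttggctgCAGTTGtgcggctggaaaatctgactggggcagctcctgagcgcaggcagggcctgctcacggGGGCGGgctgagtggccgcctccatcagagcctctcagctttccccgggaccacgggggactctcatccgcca
The Dmd window ends in the first exon of the full-length muscle transcript. It held 1 CArG box and 1 MEF2 site, which occur in 1.63% and 3.19% of the 32817 windows of that length in the table, and 3 E-boxes, present in 72.3%. The MEF2 site overlaps a TATAAA match on the reverse strand. The Dag1 window held 30 CpG dinucleotides, more than 88.3% of all windows did, with 3 GC boxes (at least 1 in 35.6% of windows) and 1 E-box. The Sgcd window held 12 CpG, 2 E-boxes and 1 GC box, and the Utrn window held 2 CpG and 7 E-boxes, some of which overlap. The windows of Utrn and Sgcd begin at starts that lie 7.63 and 609.6 kb inside the gene as the deposited table bounds it, so they are not the first promoter of those gene models. Dmd and Dag1 each have a second window that is not shown. That of Dmd, 2099 kb inside the gene, held 3 GC boxes and 0 E-boxes, 0 CArG boxes and 0 MEF2 sites. That of Dag1, 0.144 kb inside, held 47 CpG, 4 GC boxes and 1 E-box. Gene-level counts do not say which start was used, and a match to a motif is a description of the sequence.

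Dmd (chromosome X, 82948870 to 85206142 on mm10, plus strand), which encodes dystrophin, had 2439, 1667 and 1777 CPM in injured libraries A, B and C, against 2532, 1943 and 2289 CPM in non-injured libraries A, B and C. The 2 groups overlapped, because injured A was higher than non-injured B and C. The log2 fold change was -0.20 ± 0.17 (SE), with a 95% interval from -0.57 to 0.16 (adjusted p = 0.614, edgeR). Differences from -32.4% to 11.9% lie within that interval. With the letter as a block it was -0.21 ± 0.11 (adjusted p = 0.293). Within letters the log2 differences were -0.05 in A, -0.22 in B and -0.37 in C: every pair was lower in injured muscle, and the A pair hardly differed. Without injured A the log2 fold change was -0.40, without injured B it was -0.09. Without non-injured A it was -0.13 and without non-injured B it was -0.31.

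Utrn (chromosome 10, 12382188 to 12869366, minus strand) had 62.9, 67.1 and 70.1 CPM in injured libraries A, B and C, against 55.9, 63.8 and 61.2 CPM in non-injured libraries A, B and C. The ranges overlapped by 1 library, non-injured B being above injured A. Under scaling by library totals or by the upper quartile they did not overlap. Every letter pair was higher in injured muscle (log2 differences of 0.17, 0.07 and 0.20 in A, B and C), as were 21.6% of all genes. The log2 fold change of 0.15 ± 0.13 (SE) did not pass the test (95% interval from -0.15 to 0.44, adjusted p = 0.663, edgeR; blocked adjusted p = 0.48). A rise of more than 35.4% lies outside that interval, and the log2 fold change was 0.07 without non-injured A.

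The ratio of Utrn to Dmd counts does not depend on how libraries are scaled. There were 2.58, 4.02 and 3.94 Utrn counts per 100 Dmd counts in injured libraries A, B and C, against 2.21, 3.29 and 2.67 in non-injured libraries A, B and C. The ratio was higher in injured muscle in all 3 letters, and the ranges overlapped because injured A lay below non-injured B and C. The group means of the log2 ratio were -4.86 ± 0.36 in injured and -5.22 ± 0.29 in non-injured libraries (SD, n = 3 each), a difference of 0.36 (exact permutation test, two-sided, p = 0.3; Benjamini-Hochberg adjusted over 5 ratios, 0.5). Letter A weighed on it: the difference was 0.57 without injured A and 0.22 without non-injured A. The smallest p that 3 libraries against 3 allow is 0.1, so no ratio could pass 0.05.

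**Figure D1:**
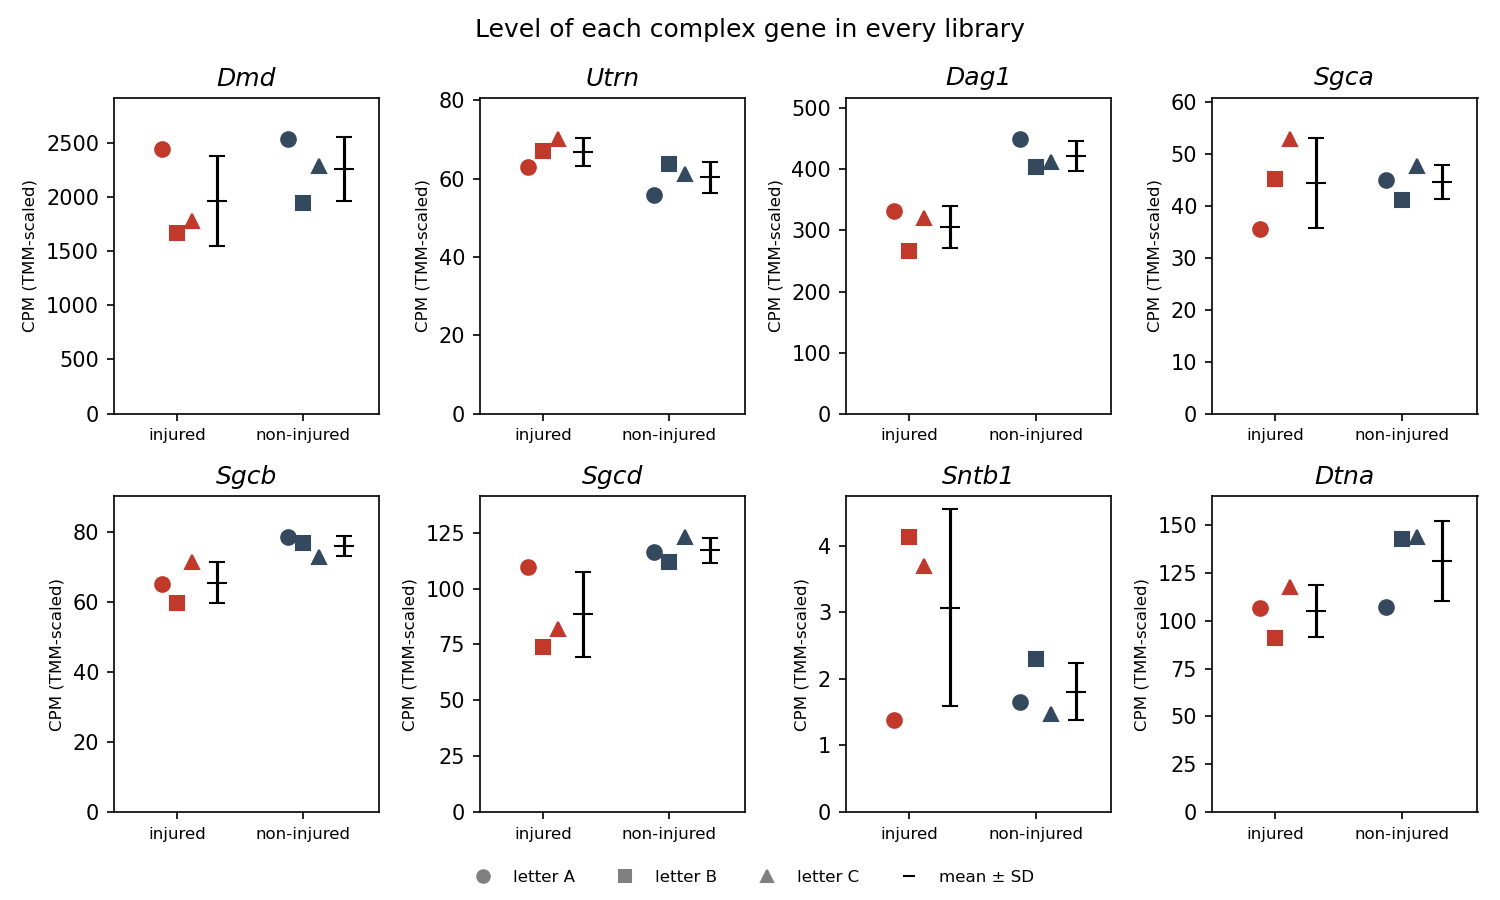
Level of each of the 8 genes in CPM (TMM-scaled, linear axis from 0), with 1 point per library, the letter as the marker shape, and mean ± SD beside each group. Dag1, Sgcb and Sgcd are the genes whose injured points all lie below every non-injured point; Sntb1 stays under 5 CPM.

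Dag1 (chromosome 9, 108204634 to 108263959, minus strand), whose product is cleaved into the laminin-binding alpha and the membrane-spanning beta dystroglycan, had the largest log2 fold change of the members with a mean of at least 200 counts. It had 331, 267 and 319.8 CPM in injured libraries A, B and C, against 449, 404 and 411 CPM in non-injured libraries A, B and C. All injured libraries lay below all non-injured ones, and this held under each of the other 3 scalings tried. The means were 306 ± 34.5 CPM in injured and 421 ± 24.5 CPM in non-injured libraries (SD, n = 3 each). The log2 fold change was -0.46 ± 0.14 (SE), a difference of -27.4% with a 95% interval from -41.2% to -10.4%, but the adjusted p was 0.142 (edgeR, 16095 genes). With the letter as a block Dag1 fell (log2 -0.47 ± 0.10 SE, adjusted p = 0.0162). Within letters the log2 differences were -0.44 in A, -0.60 in B and -0.36 in C, so each pair was lower. In blocked fits without 1 letter pair the adjusted p was 0.0369 without A, 0.136 without B and 0.0142 without C.

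Against Dmd, Dag1 was lower in letters A and B and the same in C. There were 13.6, 16.0 and 18.0 Dag1 counts per 100 Dmd counts in injured libraries A, B and C, against 17.8, 20.8 and 18.0 in non-injured libraries A, B and C. The difference of the mean log2 ratio was -0.25 (exact permutation test, two-sided, p = 0.3, adjusted 0.5), and it was -0.15 without injured A. Expressed as a share of the summed level per kilobase of the 8 genes, Dag1 made up 24.3%, 24.4% and 25.8% in injured libraries A, B and C, against 28.7%, 29.7% and 27.7% in non-injured libraries A, B and C. Those shares did not overlap, while those of Dmd did (38.3% to 47.7% in injured, 38.1% to 43.2% in non-injured libraries), as did those of every other member. The shares rest on the same Dag1 counts as the CPM values above and are no separate evidence.

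The sarcoglycans are single-pass membrane proteins that assemble with one another before they reach the fibre surface. Sgcd (delta-sarcoglycan; chromosome 11, 46896253 to 47988970, minus strand) had 109.6, 73.8 and 81.7 CPM in injured libraries A, B and C, against 116, 112 and 123 CPM in non-injured libraries A, B and C. The groups did not overlap, although injured A lay close to non-injured B and apart from injured B and C. The log2 fold change was -0.41 ± 0.16 (SE; 95% interval from -0.75 to -0.06; adjusted p = 0.257, edgeR). With the letter as a block Sgcd fell, at the threshold (log2 -0.42 ± 0.12 SE, adjusted p = 0.0495). The call was lost in blocked fits without pair B (adjusted p = 0.24) or pair C (adjusted p = 0.177). The difference sat in letters B and C (log2 -0.60 and -0.59) and was -0.09 in A. Without both letter A libraries the unblocked adjusted p was 0.0408 at a log2 fold change of -0.60.

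Sgcb (beta-sarcoglycan; chromosome 5, 73632749 to 73647791, minus strand) had 65.4, 59.9 and 71.6 CPM in injured libraries A, B and C, against 78.6, 76.9 and 72.8 CPM in non-injured libraries A, B and C. The injured libraries were all below the non-injured ones, with injured C close to non-injured C. The log2 fold change was -0.21 ± 0.14 (SE; adjusted p = 0.491, edgeR; blocked adjusted p = 0.286), with a 95% interval from -0.51 to 0.08. Sgca (alpha-sarcoglycan, a sarcoglycan of striated muscle; chromosome 11, 94962791 to 94976328, minus strand) had 35.5, 45.1 and 52.8 CPM in injured libraries A, B and C, against 44.9, 41.2 and 47.7 CPM in non-injured libraries A, B and C. The injured libraries spread on both sides of the non-injured ones. The log2 fold change of Sgca was 0.00 ± 0.16 (SE, adjusted p = 0.996, edgeR), with a 95% interval from -0.36 to 0.35, and its sign changed with the scaling and with the libraries kept. Summed, the 3 sarcoglycans gave 8.63, 10.7 and 11.6 counts per 100 Dmd counts in injured libraries A, B and C, against 9.47, 11.8 and 10.6 in non-injured libraries A, B and C. The mean log2 difference of -0.05 changed sign with the libraries kept (exact permutation test, two-sided, p = 0.7, adjusted 0.7).

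**Figure D2:**
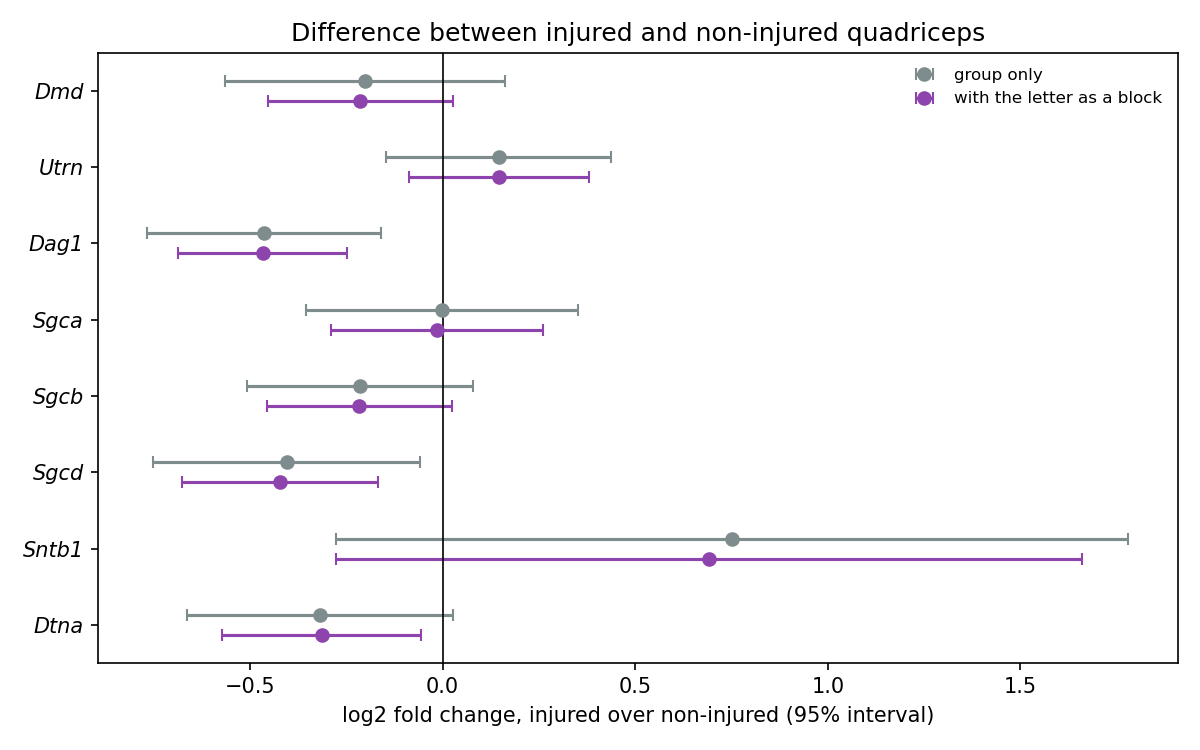
Log2 fold change of each gene, injured over non-injured, with 95% intervals, in the fit on group alone (grey) and with the letter as a block (purple). The intervals of Dag1 and Sgcd lie below 0 in both fits, that of Dtna in the blocked fit, and Sntb1 has the widest interval.

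Among the adaptors, Dtna (alpha-dystrobrevin, which binds dystrophin and carries syntrophins; chromosome 18, plus strand) had 107, 91.1 and 118 CPM in injured libraries A, B and C, against 107, 143 and 144 CPM in non-injured libraries A, B and C. Injured B was the lowest library and non-injured A lay within the injured range. The log2 fold change was -0.32 ± 0.16 (SE; 95% interval from -0.66 to 0.03; adjusted p = 0.369, edgeR; blocked adjusted p = 0.141). Letter A showed a log2 difference of -0.01, B of -0.65 and C of -0.28. An antisense model, Gm47898, covers 0.532% of the exon bases of Dtna, and the other members share no exon base with another gene in GENCODE M21.

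Sntb1 (beta-1 syntrophin, a scaffold for signalling enzymes and channels; chromosome 15, 55636388 to 55906950, minus strand) was near the floor of the table, with 9, 27 and 26 counts in injured libraries A, B and C, against 13, 20 and 11 counts in non-injured libraries A, B and C. In CPM these were 1.38, 4.13 and 3.70 in injured and 1.66, 2.30 and 1.47 in non-injured libraries. Injured A was the lowest of the 6 and injured B and C were the highest. The log2 fold change of 0.75 ± 0.48 (SE) had a 95% interval from -0.28 to 1.78 (adjusted p = 0.488, edgeR; blocked adjusted p = 0.408), and it moved to 1.08 without injured A and to 0.49 without injured B. Dtnb, beta-dystrobrevin, had a mean of 43 counts per library. The Dtna to Dtnb ratio was 30.3, 13.5 and 16.6 in injured libraries A, B and C and 28.0, 20.1 and 21.9 in non-injured libraries A, B and C (exact permutation test, two-sided, p = 0.5, adjusted 0.625). The log2 difference was -0.29, and it was -0.62 without injured A and -0.04 without injured B.

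**Figure D3:**
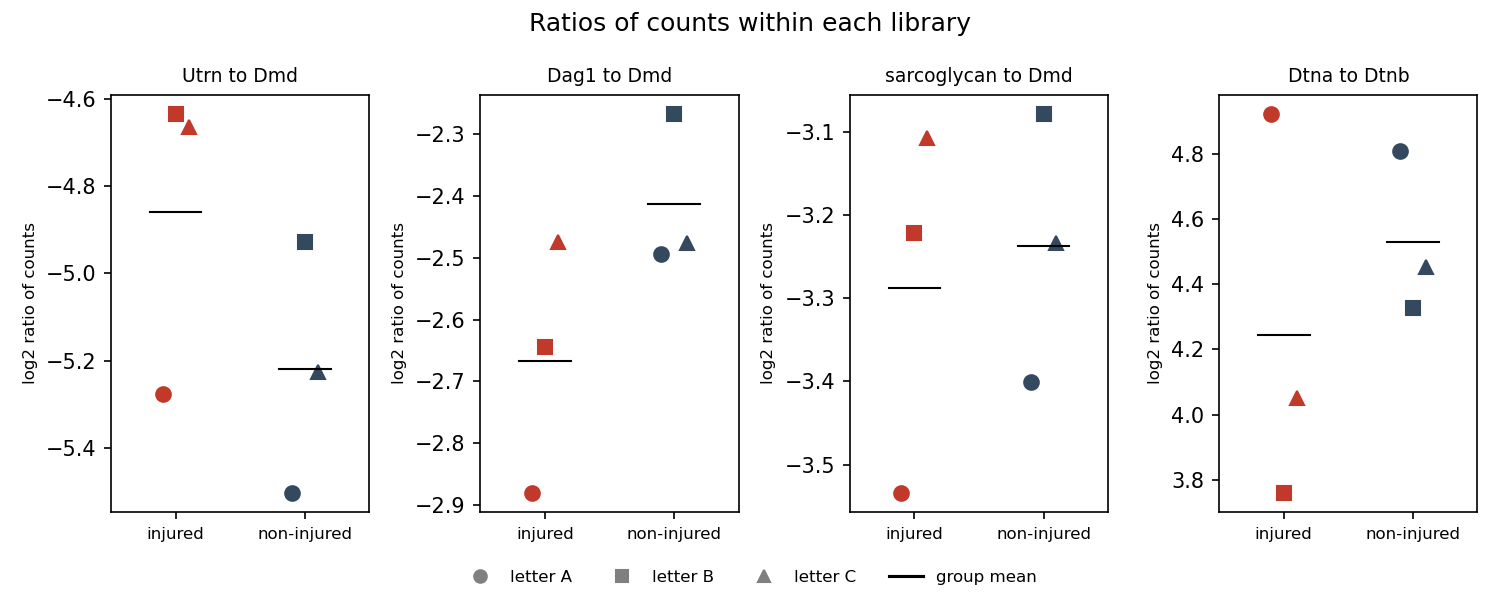
Log2 ratio of counts within each library for 4 ratios, with 1 point per library, the letter as marker shape and a line at each group mean; axes differ between panels and do not start at 0. Injured and non-injured libraries overlap in every panel.

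Taken by letter, 5 of the 8 genes (Dmd, Dag1, Sgcb, Sgcd and Dtna) were lower in injured muscle in all 3 pairs, as were 21.9% of all genes, and 1, Utrn, was higher in all 3. The sizes differed by letter. In letter A the log2 differences of Dmd, Sgcd and Dtna were -0.05, -0.09 and -0.01, while those of Dag1, Sgca and Sgcb were -0.44, -0.34 and -0.27. In letter C, Sgcb was at -0.02 and Dag1, Sgcd and Dmd were at -0.36, -0.59 and -0.37.

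**Figure D4:**
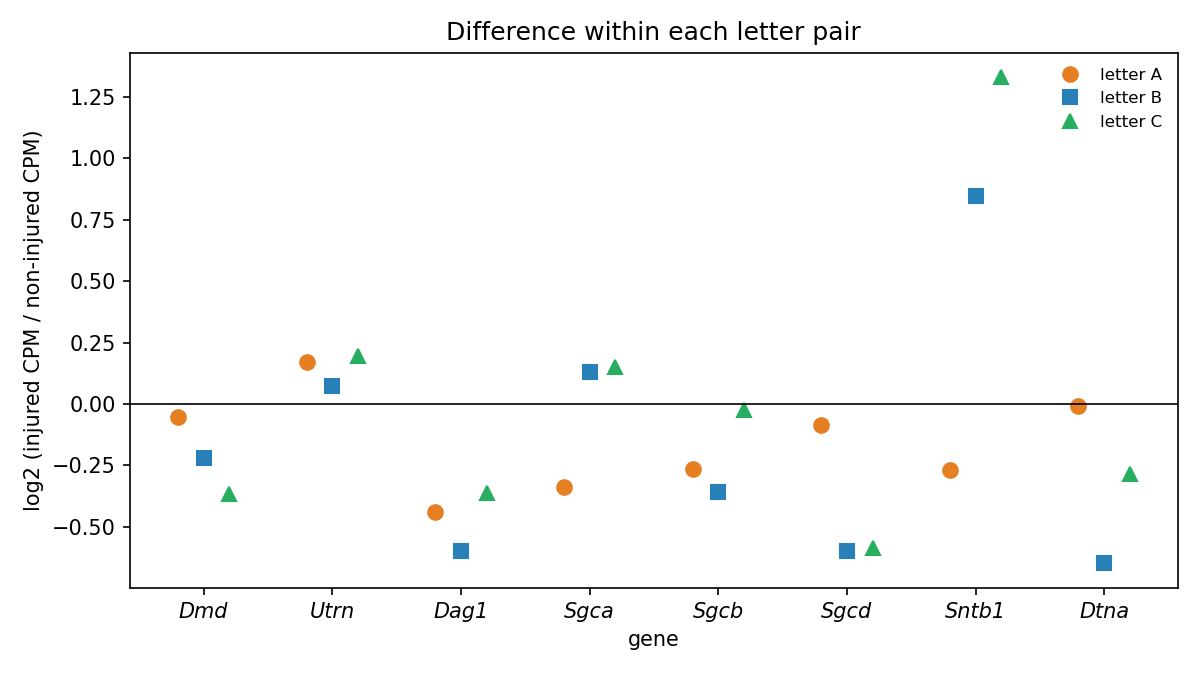
Log2 ratio of injured to non-injured CPM within each letter pair for the 8 genes. Dag1 lies at -0.36 or lower in all 3 pairs, Sgcd near -0.60 in B and C and at -0.09 in A, and Utrn is above 0 in all 3.

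Per kilobase of exon (RPKM, from the TMM-scaled CPM and the union of GENCODE exons, which include exons of minor isoforms), Dmd led, with 82.4 ± 17.6 RPKM in injured and 94.7 ± 12.4 RPKM in non-injured libraries (SD, n = 3 each). Dag1 followed at 48.1 ± 5.43 and 66.3 ± 3.86 RPKM in injured and non-injured libraries. In the same order of groups, Sgca was at 25.6 ± 4.996 and 25.7 ± 1.86, Sgcb at 16.2 ± 1.45 and 18.8 ± 0.73, Sgcd at 10.7 ± 2.28 and 14.2 ± 0.67. Dtna was at 6.22 ± 0.80 and 7.75 ± 1.23, Utrn at 3.90 ± 0.21 and 3.52 ± 0.24, and Sntb1 at 0.58 ± 0.28 and 0.34 ± 0.08. In every one of the 6 libraries each gene was above the next in that order. Over all libraries the ranges of Dmd and Dag1 met (lowest Dmd 70.0, highest Dag1 70.7 RPKM), as did those of Sgcb and Sgcd (14.8 and 14.9 RPKM), and the other neighbours were apart. Dystrophin transcript was measured well above utrophin transcript in both groups, and Dmd ranked 40th in mean count among the 16095 genes.

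**Figure D5:**
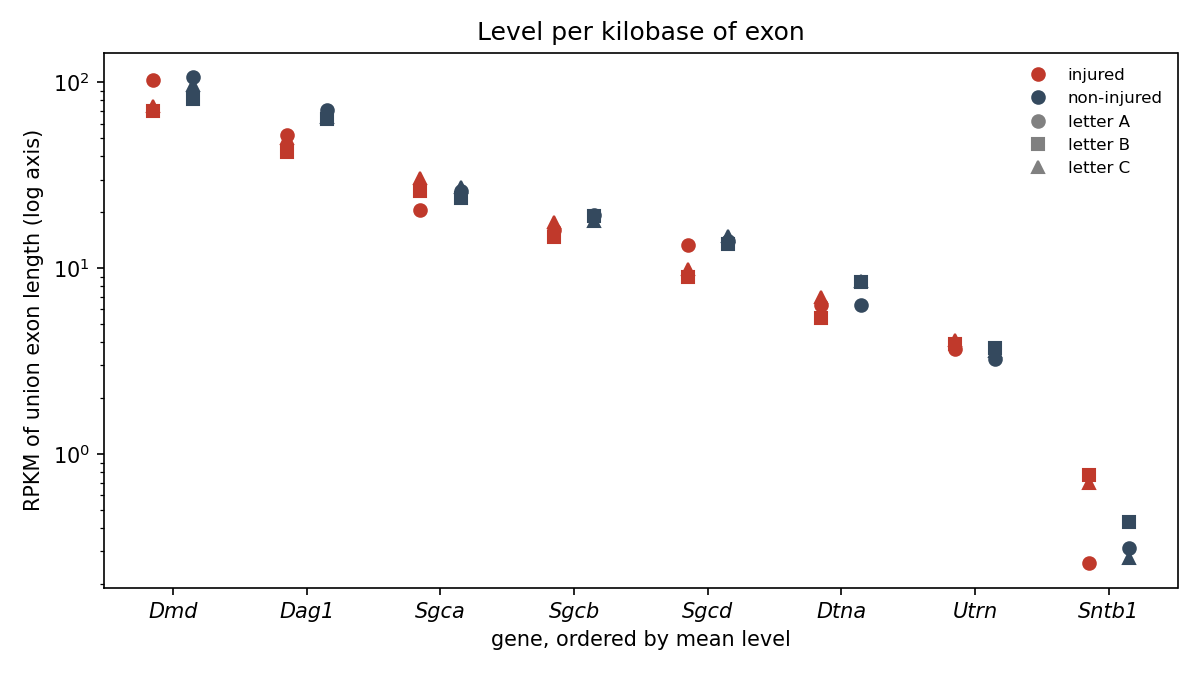
Level per kilobase of exon (RPKM, log axis) in each library, with genes ordered by their mean over the 6 libraries. The order from Dmd at the left to Sntb1 at the right is the same in injured and non-injured libraries.

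Dmd and Sgcd are also among the longest genes measured: of the 16095 genes tested, Dmd (2257 kb) ranked second by genomic span and Sgcd (1093 kb) ranked 24th. Among protein-coding genes with a mean of at least 200 counts, the median log2 fold change was -0.08 for 1997 genes of up to 50 kb, -0.13 for 1209 genes of 50 to 200 kb, -0.13 for 185 genes of 200 to 500 kb and -0.20 for 43 genes above 500 kb, of which 88.4% were negative and 14.0% fell in the blocked fit. Dmd (-0.20) lay at the median of that longest class and Sgcd (-0.41) below its lower quartile of -0.30. Dag1 (59.3 kb, log2 -0.46) was below the lower quartile of its own class, -0.26. These classes were formed after the values were seen. They include Dmd, Sgcd and Dag1 themselves, and Sgcd is among the genes of the longest class that fell in the blocked fit.

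Of 12 other subunits and partners of the complex, 10 were tested, and 0 rose and 0 fell (edgeR; 0 with an unadjusted p under 0.05, 0 with the letter block), with a median log2 fold change of -0.01. The smallest p in that list belonged to the syntrophins Sntb2 (12.4 ± 1.13 CPM in injured and 8.66 ± 3.42 CPM in non-injured libraries, log2 0.52 ± 0.27 SE, adjusted p = 0.391, edgeR) and Sntg1 (a mean of 10 counts per library, adjusted p = 0.391).

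Outside the fibre, 1 of 10 laminins and other dystroglycan ligands rose, the small proteoglycan biglycan, Bgn, at 51.9 ± 12.5 CPM in injured and 16.2 ± 4.30 CPM in non-injured libraries (SD, n = 3 each; log2 1.67 ± 0.21 SE, adjusted p = 0.00346, edgeR), and 0 fell. In the same fit 0.715% of all genes rose. The list's median was 0.08. Of 17 enzymes that build the sugar chains on alpha-dystroglycan, 0 rose and 0 fell in the fit on group alone. At an unadjusted p under 0.05 there were 2, in opposite directions, against 15.4% of all genes. Of these 2, 1 fell with the letter block, the only call of the list in that fit, where 2.65% of all genes fell. That was B4gat1, which primes the laminin-binding glycan, at 4.13, 4.13 and 5.98 CPM in injured libraries A, B and C, against 9.82, 7.58 and 14.1 CPM in non-injured libraries A, B and C. Its groups did not overlap (log2 -1.13 ± 0.29 SE, adjusted p = 0.0875, edgeR; blocked log2 -1.13 ± 0.24 SE, blocked adjusted p = 0.0116, mean of 57.3 counts). The other was Pomk, a kinase of the dystroglycan glycan, at 8.42, 5.81 and 5.84 CPM in injured libraries A, B and C, against 2.17, 3.67 and 3.61 CPM in non-injured libraries A, B and C (log2 1.08 ± 0.32 SE, adjusted p = 0.137, edgeR; blocked adjusted p = 0.0649), named after its values were seen. The Pomk groups did not overlap either, with injured higher. The enzymes' median was 0.12.

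Integrins and the linkers of the costamere form the other route from laminin to the fibre skeleton. Of 22 integrins and costamere linkers tested, 0 rose and 0 fell in the fit on group alone. An unadjusted p under 0.05 was found for 5, against 15.4% of all genes. With the letter block 3 rose and 0 fell, where 3.21% of all genes rose. The first was Itgb1, the beta-1 integrin chain (142 ± 17.3 CPM in injured, 101 ± 8.57 CPM in non-injured libraries, blocked log2 0.49 ± 0.10 SE, blocked adjusted p = 0.0118). The second was Tln1, talin-1 (141 ± 9.35 and 106 ± 1.77 CPM in injured and non-injured libraries, blocked log2 0.41 ± 0.10 SE, blocked adjusted p = 0.0284). The third was Itga7, the alpha chain of the muscle laminin receptor (125 ± 20.6 and 94.1 ± 30.0 CPM in injured and non-injured libraries, blocked log2 0.44 ± 0.11 SE, blocked adjusted p = 0.0314). The other talin, Tln2, did not pass (108 ± 20.7 CPM in injured, 113 ± 16.9 CPM in non-injured libraries, blocked log2 -0.07 ± 0.10 SE, blocked adjusted p = 0.758). It was named after its values were seen. The list's median in the fit on group alone was 0.13, and 9 of the 22 had a negative log2 fold change. Itgb1 and Tln1 are also made by the macrophages and fibroblasts. The macrophage and fibroblast marker sums were higher in injured muscle. Without its 2 collagens the fibroblast sum overlapped between the groups, although the levels of Pdgfra did not. The part of those cells was not tested.

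Of 13 genes of membrane repair and caveolae, 2 rose and 0 fell, where 0.715% of all genes rose and 0.0311% fell. The 2 were the annexin Anxa2 (18.2 ± 2.16 CPM in injured, 7.08 ± 1.28 CPM in non-injured libraries, log2 1.36 ± 0.21 SE, adjusted p = 0.01, edgeR) and the dysferlin relative Myof, myoferlin (14.7 ± 3.23 and 5.96 ± 1.01 CPM in injured and non-injured libraries, log2 1.30 ± 0.24 SE, adjusted p = 0.0285). At an unadjusted p under 0.05 there were 6, against 15.4% of all genes. These included Ano5, lower in injured muscle (log2 -0.37 ± 0.14 SE, adjusted p = 0.251, edgeR; blocked adjusted p = 0.0607) and named after its values were seen. The list's median was 0.22. Of 11 genes of the neuromuscular junction, where Utrn is concentrated, 0 rose and 0 fell (0 with an unadjusted p under 0.05, 0 with the block), with a median of 0.10. The smallest p belonged to Dok7 (log2 -0.30 ± 0.16 SE, adjusted p = 0.42, edgeR) and the acetylcholine receptor subunit Chrna1 (log2 0.52 ± 0.29 SE, adjusted p = 0.435).

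Profiles over the 6 libraries were compared by the root mean square difference of centred log2 CPM, among 8172 other genes. These had a mean of at least 50 counts and a symbol that is no Gm, Rik, clone or accession model. Most like Dmd were Hsdl2 (0.0308), Arid5b (0.04) and Zfp945 (0.0424), against a median of 0.289 over all these genes. Most like Utrn were Mrip-ps (0.0346), Prr12 (0.0355) and Kat2b (0.0361), against a median of 0.242. Among the members Sgcd was nearest to Dmd, at a distance of 0.144 and rank 574, Dag1 was at rank 1396 and Utrn at rank 4946.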

How the data were processed

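Gene counts were deposited by the authors as estimated counts, 72.4% to 74.7% of the values per library, zeros included, being within 1e-09 of a whole number. Per the submitters' processing notes, tools included STAR (2.7.8a), DESeq2 and Partek, and builds mm10 and hg19; which counter, strand mode and annotation release served is not given in the sources used here. The table's name calls the RNA myonuclear, while the labels' protocol describes total RNA and no isolation of nuclei. The lowest row maximum was 10 counts.

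Counts were rounded, filtered with filterByExpr (3920 genes dropped), scaled by TMM and tested with edgeR 4.0.16 (R 4.3.3) by the quasi-likelihood F test, two-sided, adjusted over 16095 genes by Benjamini-Hochberg. Standard errors came from dividing the size of a log2 fold change by the root of its F statistic. DESeq2 1.42.0 and limma 3.58.1 served as alternatives. Separate animals are not stated in the labels: the p-values rest on the spread between libraries, which may be technical. Libraries of the same letter deviated together from their group means (correlations of 0.316, 0.208 and 0.114 for A, B and C over 16095 genes), least so in C. Between different letters the correlations ran from -0.231 (injured B with non-injured A) to 0.062 (injured B with non-injured C). Blocked values are therefore given where they change a call. Named genes were the 8 members, list genes past the threshold (with the block where none was; otherwise the 2 smallest p) and the 3 genes most like Dmd and Utrn. Members and lists were chosen with earlier results of these data known. Of the 5 ratios adjusted together, 4 are given; the other, and some single genes of the lists, are not reported here.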

Additional observations from a re-analysis of the deposited data

How the results depend on the processing

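Of the 8 genes, 0 passed in the fit on group alone, with other scalings, other count filters, DESeq2, limma-voom or any 1 library left out; 2 passed with the replicate block, 1 (Sgcd) without both letter A libraries, and, in blocked fits added after the data were seen, 2 without pair A, 0 without pair B and 1 (Dag1) without pair C. Over all genes 120 passed, against 327 with DESeq2, 59 with limma-voom, 943 with the replicate block, 297 without both letter A libraries, 680, 596 and 740 in blocked fits without pair A, B and C, and 20 to 129 with 1 library left out. Dmd, Dag1, Sgcb, Sgcd and Dtna kept a negative and Utrn a positive log2 fold change in all 17 alternatives, and Sntb1 a positive one in the 16 that tested it; the range was -0.54 to -0.37 for Dag1, -0.60 to -0.29 for Sgcd, -0.40 to -0.09 for Dmd and 0.07 to 0.21 for Utrn. Sgca turned positive with upper quartile scaling (0.046), when genes needed a mean of 50 counts (0.066), with both letter A libraries left out (0.14) and in the blocked fit without pair A (0.13), and ran from -0.17 to 0.12 with 1 library left out. The sarcoglycan to Dmd log2 ratio difference ran from -0.14 to 0.073 with 1 library left out. The cause of these changes was not tested. Of the 8 genes Sntb1 had the fewest counts, at a mean of 17.7 per library.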
